A study of Mus musculus with 10 samples.

Results

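The loci described here are the 3 places in a table of Elk1 and Gli2 binding that lie on the mouse genes Rnu2-10, Rnu11 and Rnu3a, which encode the U2, U11 and U3 RNAs. They were taken as the loci that overlap or come within 1 kb of those genes in the RefSeq annotation of GRCm38, the same build as mm10. Each gene had 1 such locus, so there were 3 loci of 1577. The genes were chosen by their Gli2 and Elk1 signals in these same libraries, and their levels and stage differences are therefore given as a description, with no test.

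Chromatin immunoprecipitation with sequencing was done against Elk1, an ETS transcription factor, or against Gli2, a zinc finger factor of the Hedgehog pathway. Mouse fibroblasts named tdMEFs were taken on day 0, in fibroblast medium, and after 4 and 8 days in M9, a neural medium with basic FGF, CHIR99021, LDN193189, A83-01, the Hedgehog pathway agonist Hh-Ag1.5, retinoic acid, SMER28, RG108 and Parnate. Cells labelled ciNSLCs and cells labelled pri-NPC made up the remaining stages. The labels expand neither name and do not say what medium pri-NPC had. The series text sets ciNSLC beside day 0, whereas the labels keep them apart, and the labels were followed. Each antibody and stage had 1 library, 10 in all, so nothing below was checked by a replicate and there are no p-values. A larger share of bound cells and more binding per cell cannot be told apart in such bulk material. Neither genotype nor mouse strain is given in the labels, and a binding table offers no expression markers against which to check the cell types. Whether a library came from 1 culture or from pooled cells is not stated.

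Splicing of most introns depends on U2, which pairs with the branch site in the major spliceosome. U11 serves the minor spliceosome, where it recognises the 5′ splice site of the rare introns of the U12 type. U3 is a nucleolar RNA that guides early processing of the precursor of ribosomal RNA. Genes of this kind are transcribed by RNA polymerase II from compact promoters that hold a proximal and a distal sequence element, while U6, 7SK, the Y RNAs and tRNAs are made by RNA polymerase III.

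The signal of each locus is the value the authors deposited. It is never negative, its scaling is not given in the sources used here, and total read depth is unknown. Low signals fell on a grid in every library, from which the worth of 1 counted unit was read. A unit was worth 11.95 in Gli2 on day 0, 7.52 on day 4, 4.27 on day 8, 3.00 for ciNSLCs and 5.87 for pri-NPC, and 2.82 to 14.51 in the Elk1 libraries. A smaller unit means that more units stand behind the same signal, so the Gli2 day 0 values are the least precise of the Gli2 set. Intervals below are 95% intervals of these counts, and they cover counting error only. They ignore the error added where an inferred background was subtracted, so they can be too narrow. A difference called beyond counting error is one whose interval leaves out 1. The median Gli2 signal over all loci was 35.8 at day 0 and 12.8 to 19.6 at the other stages. Dividing each library by its median shifts log2 differences from day 0 upwards by about 1.25 for day 4, 1.48 for day 8, 1.25 for ciNSLCs and 0.87 for pri-NPC. These medians are taken over loci that each reached 100 in some of these libraries. A Gli2 signal of 100 or more was held by 628 loci on day 0 and by 90 to 261 at the other stages. The part of this listing in the scaled differences was not tested.

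The Rnu2-10 locus lies on chromosome 11 from 101658285 to 101658745. It covers 140 of the 187 bp of the gene, which runs from 101658238 to 101658424 and begins 47 bp outside it. The Rnu11 locus, on chromosome 4 from 132269685 to 132270305, contains the whole gene of 108 bp (132270079 to 132270186). The Rnu3a locus, on chromosome 10 from 40258405 to 40258845, contains the whole gene of 212 bp (40258468 to 40258679). The annotation table used gives neither strand nor exons, so upstream and downstream are not assigned.

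**Figure D1:**
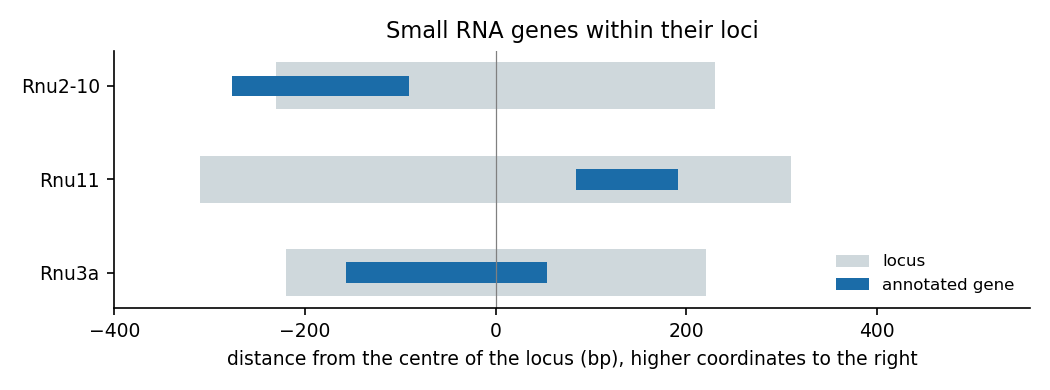
Position of each annotated gene (blue) within its locus (grey), in bp from the centre of the locus. The genes at Rnu11 and Rnu3a lie inside their loci, and the Rnu2-10 gene extends 47 bp past the locus edge.

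The nearest protein-coding genes were Arl4d, which encodes a small GTPase, 6796 bp from the Rnu2-10 locus, and Taf12, which encodes a subunit of the basal factor TFIID, 4050 bp from the Rnu11 locus. Gtf3c6, which encodes a subunit of the polymerase III factor TFIIIC, lay 693 bp from the Rnu3a locus. The RefSeq set of promoter windows, each from 250 bases before to 50 after a gene start in GRCm38.p6, held 1 gene within 1 kb of any of the 3 loci, Gtf3c6. The window nearest to the Rnu3a locus is shown because it is the promoter closest to any of the 3 loci and holds letters of the ETS family. It ends 443 bp from the locus, on the minus strand at chr10:40257663-40257962, and the capitals mark the letters CCGGAAG, a core of the sites that ETS factors prefer.
Gtf3c6: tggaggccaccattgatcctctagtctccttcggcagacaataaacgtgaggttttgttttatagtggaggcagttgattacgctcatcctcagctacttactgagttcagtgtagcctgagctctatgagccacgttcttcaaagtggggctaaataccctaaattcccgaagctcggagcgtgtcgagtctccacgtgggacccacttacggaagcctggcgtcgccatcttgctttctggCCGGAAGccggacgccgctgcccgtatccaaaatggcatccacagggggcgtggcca
Searched on both strands, CCGGAAG was present in 8.86% of all 32851 promoter windows. The window also held ACCNTNA, letters resembling a proximal sequence element and present in 32.4% of windows, and TATAAA, present in 13.6%. Not in it were the octamer of distal elements (ATGCAAAT, in 1.74% of windows), a Gli core (TGGGTGG, 9.30%), a GC box (GGGCGG, 35.7%), a cyclic AMP element (TGACGTCA, 1.79%) and an SPH-like element (ACTACAA, 3.24%). An alternative Gtf3c6 window, 593 bp from the locus, held the ETS and proximal element letters, and the Gli and GC box letters only with the bases after the start included. A match is a description of letters, and no binding site is claimed from it.

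At Rnu2-10 Gli2 signal was highest in pri-NPC. It was 94.3 on day 0, 142.4 on day 4, 120.6 on day 8, 201.8 for ciNSLCs and 278.4 for pri-NPC. Day 0 was the lowest of the 5 libraries, and the order was pri-NPC, ciNSLCs, day 4, day 8 and day 0. No neighbours in that order differed beyond counting error, the top pair being pri-NPC over ciNSLCs with a ratio of 1.38 (interval 0.925 to 2.02). The ends of the order did differ, with a ratio of pri-NPC to day 0 of 2.95 (interval 1.35 to 7.07). ciNSLCs stood 2.14 times above day 0 (interval 1.01 to 5.07), at the edge of counting error. The day 0 value rested on 8 counted units and the pri-NPC value on 47.

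Elk1 signal at Rnu2-10 was 0 on day 0, 0 on day 4, 0 on day 8, 2.8 for ciNSLCs and 0 for pri-NPC. Only the ciNSLC library gave a value above 0, and it amounts to 1 unit. Read as a count of 0, these values allow a signal of up to 10.3 at day 0, 29.1 at day 4, 15.2 at day 8 and 43.5 in pri-NPC, taking 3 units per library as the limit. Since the signal is never negative, a 0 may also stand for units removed with the background. The limits leave this out. The bars in the plot of signals by stage show the 95% two-sided interval, a wider measure that reaches 12.7, 35.7, 18.7 and 53.5 in these libraries.

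At Rnu11 the Gli2 pattern was close to that of Rnu2-10. The signal was 114.6 on day 0, 127.8 on day 4, 98.2 on day 8, 203.2 for ciNSLCs and 299.9 for pri-NPC. The 3 days lay together, and ciNSLCs and pri-NPC lay above them. pri-NPC exceeded day 0 with a ratio of 2.62 (interval 1.26 to 5.53). ciNSLCs exceeded day 8 with a ratio of 2.07 (interval 1.28 to 3.49), while against day 0 the ratio was 1.77 (interval 0.874 to 3.72), within counting error. The ratio of ciNSLCs to pri-NPC was 0.678 with an interval of 0.467 to 1.0, which ends at no difference. The order was pri-NPC, ciNSLCs, day 4, day 0 and day 8, and the neighbours below ciNSLCs did not differ beyond counting error.

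Elk1 signal at Rnu11 was 10.3 on day 0, 9.7 on day 4, 14.4 on day 8, 5.6 for ciNSLCs and 9.3 for pri-NPC. It was above 0 in every library, unlike at Rnu2-10 and Rnu3a, but each value rested on 1 to 3 units.

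At Rnu3a, in contrast, Gli2 signal at day 0 was close to that in pri-NPC. It was 135 on day 0, 112.3 on day 4, 54.9 on day 8, 77.5 for ciNSLCs and 148.6 for pri-NPC. Days 0 and 4 and pri-NPC were above 100, and day 8 was the lowest. The order was pri-NPC, day 0, day 4, ciNSLCs and day 8, with no neighbours apart beyond counting error. The ratio of day 8 to day 0 was 0.407 (interval 0.175 to 1.04), within counting error, and its log2 difference of -1.28 turned to 0.18 after median scaling. The ratio of pri-NPC to day 0 was 1.1 (interval 0.53 to 2.51). The ratio of ciNSLCs to pri-NPC was 0.521 (interval 0.295 to 0.96), and its log2 difference was -0.93, short of 2-fold. That interval leaves out 1 narrowly. It ignores the background subtraction, read as 37 units less 5 background steps in ciNSLCs and 28 less 3 in pri-NPC.

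Elk1 signal at Rnu3a was 10.3 on day 0, 0 on day 4, 0 on day 8, 0 for ciNSLCs and 4.1 for pri-NPC. Day 0 rested on 3 units, and the pri-NPC value was less than 1 unit after the inferred background.

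**Figure D2:**
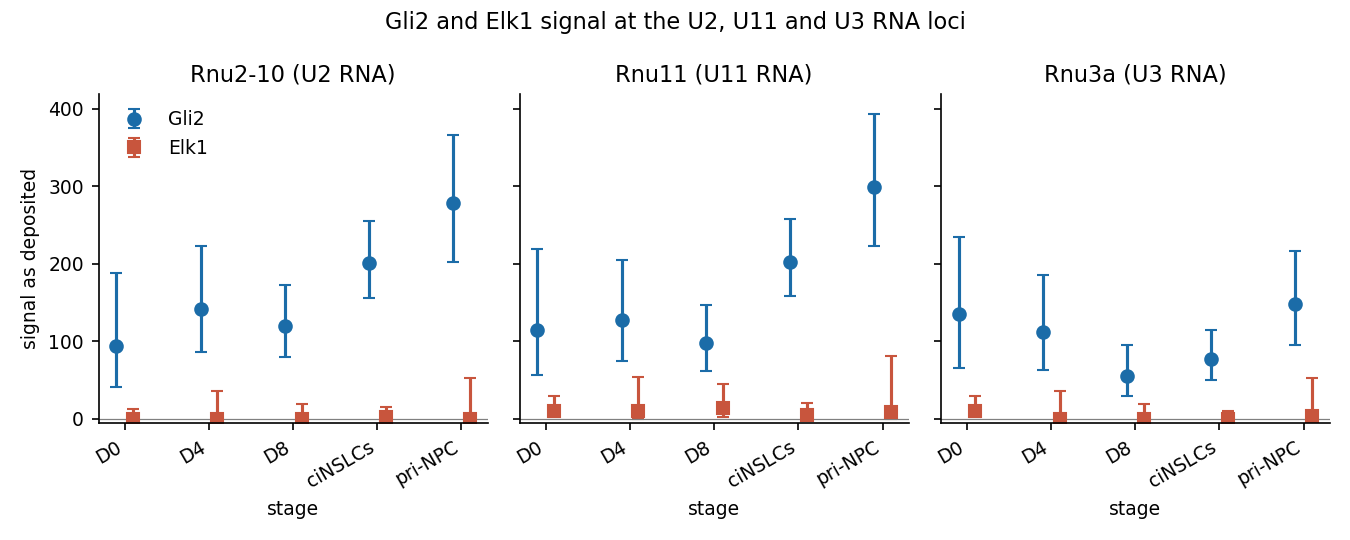
Gli2 (circles) and Elk1 (squares) signal as deposited at the 3 loci, by stage, with 1 library per point and 95% counting intervals as bars. Gli2 lies between 54.9 and 299.9 and Elk1 between 0 and 14.4.

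The comparison of stages asked how Gli2 binding at these genes differed along reprogramming and from pri-NPC. A difference of at least 2-fold on the log2(signal + 1) scale was counted as higher or lower. Against day 0, 0 of the 3 loci were higher at day 4, where 17.1% of all loci were, and 0 were lower, where 54.2% were. At day 8, 0 were higher (background 16.7%) and Rnu3a was lower (background 57.0%). In ciNSLCs, Rnu2-10 was higher (background 21.2%) and 0 were lower (background 45.9%). In pri-NPC, 2 loci were higher, Rnu2-10 and Rnu11 (background 24.7%), and 0 were lower (background 41.0%). Against day 8, ciNSLCs were higher at Rnu11 (background 33.0%) and lower at 0 loci (background 18.5%). Against pri-NPC, ciNSLCs were higher at 0 loci (background 15.0%) and lower at 0 (background 29.9%). After median scaling, Rnu2-10 and Rnu11 were at least 2-fold higher than day 0 at each of the 4 other stages, so the counts of 0 at days 4 and 8 became 2 of 3. The scaled log2 difference of Rnu2-10 was 1.83 on day 4 and 1.82 on day 8, and that of Rnu11 was 1.40 and 1.25. The share of all loci at least 2-fold higher after scaling was not counted, and the shares above do not apply to it. The median scaled difference over all loci was 0.0 on day 4, 0.0 on day 8, 0.41 for ciNSLCs and 0.23 for pri-NPC.

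When the counting interval also had to leave out 1, the higher calls that remained were Rnu2-10 in ciNSLCs and pri-NPC against day 0 and Rnu11 in pri-NPC against day 0 and in ciNSLCs against day 8. The last of these was short of 2-fold after median scaling, where its log2 difference went from 1.04 to 0.82. The background of higher calls then was 0.571% for day 4 against day 0, 0.0634% for day 8, 0.761% for ciNSLCs and 2.16% for pri-NPC, 13.1% for ciNSLCs against day 8 and 1.46% for ciNSLCs against pri-NPC. No lower call remained at the 3 loci, where the background was 32.3% for day 4 against day 0, 38.3% for day 8, 32.0% for ciNSLCs and 29.2% for pri-NPC, 4.44% for ciNSLCs against day 8 and 9.32% for ciNSLCs against pri-NPC. Because these comparisons share the day 0, day 8, ciNSLC and pri-NPC libraries, they do not support one another. Each of the 3 loci had reached a signal of 100 in some library outside each pair compared. Among loci listed in that way, the 2-fold background was 27.7% higher for ciNSLCs against day 0, 31.0% higher for pri-NPC against day 0, 32.9% higher for ciNSLCs against day 8 and 44.8% lower for day 8 against day 0.

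**Figure D3:**
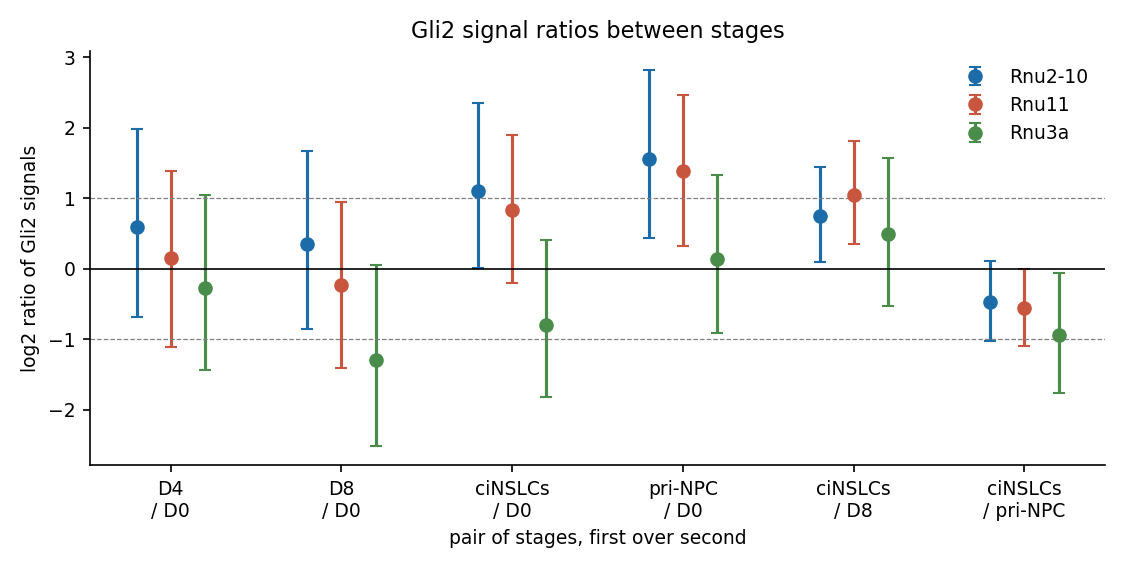
Log2 ratio of Gli2 signals for 6 pairs of stages at Rnu2-10, Rnu11 and Rnu3a, with 95% counting intervals; dashed lines mark 2-fold. The intervals of Rnu2-10 and Rnu11 lie above 0 for pri-NPC over day 0, and that of Rnu3a spans 0.

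The log2 differences from day 0 varied over the 3 loci, and whether the loci differed from one another was not tested. For pri-NPC over day 0 the intervals of the ratio overlapped. They were 1.35 to 7.07 at Rnu2-10, 1.26 to 5.53 at Rnu11 and 0.53 to 2.51 at Rnu3a. The log2 differences of pri-NPC from day 0 were 1.55 at Rnu2-10, 1.38 at Rnu11 and 0.14 at Rnu3a, against a median of -0.60 over all loci. In ciNSLCs the differences were 1.09, 0.82 and -0.79 in the same order, against -0.79 over all loci. At day 4 they were 0.59, 0.16 and -0.26, against -1.22, and at day 8 they were 0.35, -0.22 and -1.28, against -1.39. Rnu2-10 was the highest and Rnu3a the lowest of the 3 at each of these stages. After median scaling all 12 of these differences were above 0, from 0.18 at Rnu3a on day 8 to 2.41 at Rnu2-10 in pri-NPC. All 12 rest on the same day 0 median, and its dependence on how loci came to be listed was not tested. Rnu3a was then at 1.0 in pri-NPC and 0.98 on day 4, close to the 2-fold limit. So the loci that lay near or below their day 0 signal as deposited lay above it on that scale, and the direction of the differences of Rnu3a in ciNSLCs and at days 4 and 8, and of Rnu11 at day 8 (-0.22 as deposited, 1.25 scaled), depends on the scaling.

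Ranks within a library do not depend on its scaling. At day 0, 59.5% of all loci had a lower Gli2 signal than Rnu2-10, 74.9% a lower one than Rnu11 and 80.5% a lower one than Rnu3a. In pri-NPC these shares were 98.0%, 98.2% and 90.0%, which put Rnu11 in place 27 and Rnu2-10 in place 31 from the top. Rnu2-10 ranked at 96.0% on day 4, 96.5% on day 8 and 94.2% in ciNSLCs, and Rnu11 at 94.8%, 93.8% and 94.4%. Rnu3a ranked at 93.2% on day 4, 85.2% on day 8 and 85.5% in ciNSLCs. Signal divided by locus length, which was 460 bp at Rnu2-10, 620 bp at Rnu11 and 440 bp at Rnu3a against a median of 260 bp, gave ranks of 58.4%, 57.1% and 63.7% at day 0 and of 99.2%, 98.1% and 92.8% in pri-NPC. Every locus of the table reached at least 100.1 in some library. A Gli2 signal of 100 or more was held by 628 loci on day 0 and by 90 to 261 at the other stages. A signal of a given size thus ranks lower at day 0, and the part of this in the difference of rank was not tested.

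**Figure D4:**
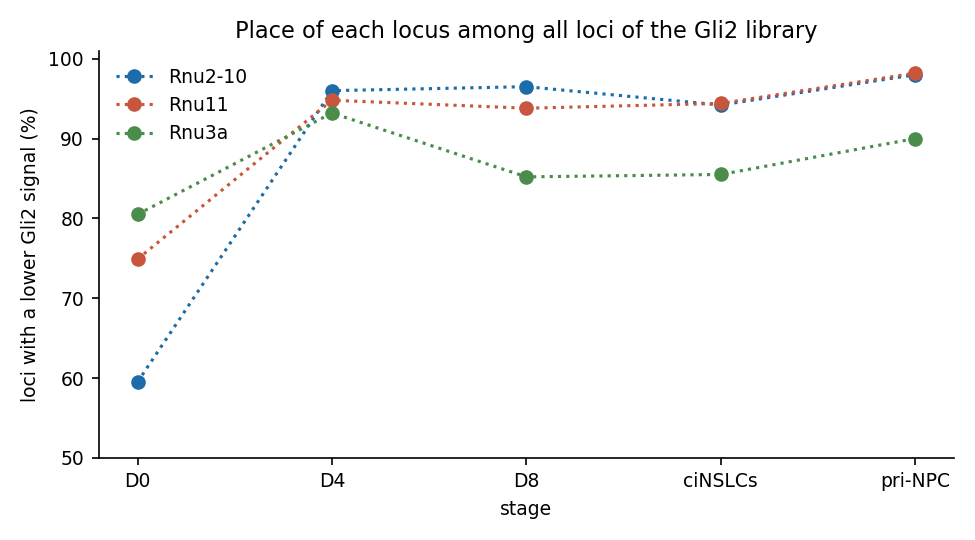
Share of all loci with a lower Gli2 signal than each of the 3 loci, in percent, by stage, 1 library per point; the axis starts at 50 and dotted lines only join the points of a locus. At day 0 the shares are 59.5 to 80.5%, and in pri-NPC 90.0 to 98.2%.

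Gli2 and Elk1 were compared at the same stage, since the table's heading speaks of both factors at the listed loci. At all 3 loci and all 5 stages Gli2 signal was above Elk1 signal by at least 2-fold, and the interval of the ratio left out 1 in each of the 15 pairs. The loci were chosen by these same signals, so the 15 pairs are a description only. Whether the signals of both antibodies are on a common scale is not known. Loci with Gli2 at least 2-fold above Elk1 made up 56.2% of all loci at day 0, 31.3% on day 4, 34.9% on day 8, 32.8% for ciNSLCs and 26.9% for pri-NPC. With the interval required they were 38.6%, 7.48%, 13.0%, 17.9% and 14.1%. Where Elk1 was at 0, Gli2 at Rnu2-10 was at least 9.15-fold higher at day 0, at least 4.9-fold on day 4, at least 7.92-fold on day 8 and at least 6.4-fold in pri-NPC. These bounds set the Gli2 signal as measured against 3 Elk1 units per library and leave out the counting error of Gli2. The 95% intervals of the ratio, which include that error, began lower, at 5.94, 3.62, 5.97 and 4.95 in the same order. Both leave out any Elk1 units removed with the background, so the fold may be smaller. At Rnu3a Gli2 was in the same way at least 3.86-fold higher on day 4, 3.6-fold on day 8 and 9.15-fold in ciNSLCs, with intervals that began at 2.78, 2.56 and 6.97. In pri-NPC a Gli2 signal of 148.6 stood beside an Elk1 signal of 4.1, less than 1 unit.

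Where Elk1 had 1 to 3 units, the ratio of Gli2 to Elk1 at Rnu11 was 11.1 at day 0 (interval 2.98 to 65.5), 13.2 at day 4 (interval 2.07 to 551), 6.82 at day 8 (interval 1.95 to 33.6), 36.3 for ciNSLCs (9.62 to 304) and 32.3 for pri-NPC (3.54 to 830). At Rnu2-10 in ciNSLCs it was 72.1 (interval 12.3 to 2852), and at Rnu3a on day 0 it was 13.1 (interval 3.37 to 71.2). Whether the ratio differed between stages was not tested. Median scaling lowered the day 0 log2 differences of Gli2 from Elk1 from 3.35 to 1.63 at Rnu11 and from 3.59 to 1.86 at Rnu3a. For Elk1 between stages, no fold is given at any of the 3 loci, since each value lay at or below 3 units. Counted on the log2(signal + 1) scale all the same, 3 of 18 Elk1 differences were at least 2-fold higher and 6 lower, and 0 of these were beyond counting error, so they are not read as changes. Higher loci made up 43.2% of all loci for day 4 against day 0, 26.3% for day 8, 22.5% for ciNSLCs and 59.5% for pri-NPC, 23.8% for ciNSLCs against day 8 and 14.5% for ciNSLCs against pri-NPC. Lower loci made up 22.3%, 25.2%, 28.0%, 19.5%, 28.3% and 63.3% in the same order.

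Other genes of the same kinds were followed through lists of RNAs. Of 9 annotated polymerase II genes for spliceosomal snRNAs and the histone-processing U7 RNA, 4 had a locus within 1 kb: Rnu1a1 (U1), Rnu2-10, Rnu5g (U5) and Rnu11. Rnu1b1, Rnu1b2, Rnu1b6, Rnu7 and Rnu12 had none. Of 7 annotated genes for the capped nucleolar RNAs U3, U8 and U13, 6 had one, namely Rnu3a, Rnu3b1, Rnu3b3, Rnu3b4, Snord118 (U8) and Snord13 (U13), and Rnu3b2 had none. Among annotated snoRNAs of the Snord and Snora families, most of which are processed from introns, 1 of 131 had a locus, and 0 of 9 scaRNAs did. Of 9 annotated polymerase III genes outside the tRNAs, 6 had a locus: Rn7sk, the 7SK RNA that restrains elongation, Rmrp, the RNA of RNase MRP, the Y RNA genes Rny1 and Rny3, the signal recognition particle RNA gene Rn7s2, and the vault RNA gene Vaultrc5. The share of all annotated genes with a locus was not counted, so these counts have no background. Rnu2-10, Rnu11 and Rnu3a were chosen by their signals and so have a locus by choice.

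The 7 other polymerase II loci had Elk1 signals of at most 30.8, and Gli2 was at least 2-fold above Elk1 at all 7 in each of the 5 stages. Their Gli2 signal at day 0 and in pri-NPC, in that order, was 142 and 196.9 at Rnu1a1, 99.1 and 125.2 at Rnu5g, 63.3 and 125.2 at Snord118, and 15.5 and 124.5 at Snord13. At the U3 copies it was 47.8 and 189.7 at Rnu3b1, 31 and 118 at Rnu3b4, and 135 and 124.5 at Rnu3b3. The Rnu3b3 locus thus resembled Rnu3a in having similar signals in both libraries, while Rnu3b1 and Rnu3b4 were higher in pri-NPC by 1.97 and 1.89 on the log2 scale. Elsewhere Rnu3b3 and Rnu3a were unlike, with 139.3 against 54.9 on day 8 and 155.2 against 77.5 in ciNSLCs. U3 genes are near-identical copies, and Rnu1a1, Rnu3b1, Rnu3b3 and Rnu3b4 lie close together on chromosome 11, so the split of reads among copies is uncertain.

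Over the 7 loci the log2 differences from day 0 had medians of 0.28 on day 4, 0.11 on day 8, 0.99 for ciNSLCs and 0.97 for pri-NPC. At least 2-fold higher were 3 of 7 at each of these stages, against 17.1%, 16.7%, 21.2% and 24.7% of all loci, and 0 were lower. The 3 were Snord13, Rnu3b1 and Rnu3b4 each time, which had the lowest day 0 signals of the 7. Snord13 and Rnu3b4 lay below 35.8 at day 0, the worth of 3 units, so the size of their differences is uncertain. Counting intervals are not given for these loci. In pri-NPC 5 of the 7 had reached 100 in a library outside the pair, and 2 of those were higher. At the 6 polymerase III loci, whose Elk1 signals were at most 23.8, the medians were -1.49, -1.50, -0.06 and -0.31. At day 4 all 6 were at least 2-fold lower than at day 0, with 5 of 6 lower on day 8, 1 for ciNSLCs and 1 for pri-NPC, and 0 higher at any stage. Of all loci, 54.2%, 57.0%, 45.9% and 41.0% were lower in the same order, so the counts for ciNSLCs and pri-NPC lay below the background. At day 4 the differences of the 3 loci and of the 7 other polymerase II loci, from -0.26 to 1.48, did not overlap with those of the 6 polymerase III loci, from -3.40 to -1.04. At day 8 they overlapped, since Rnu3a at -1.28 lay below Rn7sk at -1.05 and Rny1 at -0.80. Of all loci, 64.9% had a day 4 difference below that of Rnu3a, the lowest of the polymerase II loci, and 54.2% were at least 2-fold lower. The median day 0 signal was 216.1 at the polymerase III loci and 63.3 at the 7 other polymerase II loci. The part of day 0 level in these differences was not tested. At each stage the differences of both kinds of locus come from the same pair of libraries. Of the 6 polymerase III loci, 5 were listed through a library outside the pair and 1 through day 0 alone. The part of scaling and of listing in the gap was not tested. No test was made, since the lists were drawn up with these signals known.

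The 208 loci within 1 kb of a nuclear tRNA gene had a median log2 difference from day 0 of -2.05 at day 4 and -1.01 in pri-NPC, with 201 and 107 of them at least 2-fold lower and 0 higher. The shares of all loci that were lower were 54.2% and 41.0%. Of 987 other annotated snRNA genes, which carry no RNA name in the files, 22 had a locus. Apart from loci already counted these made 19 loci, whose median differences were -1.05 at day 4 and -0.12 in pri-NPC. At day 4, 10 of the 19 were at least 2-fold lower and 1 higher, beside 54.2% and 17.1% of all loci. For pri-NPC the counts were 2 and 5 in the same order, beside 41.0% and 24.7%. The day 4 differences of the 19 ran from -4.74 to 1.08, a range that takes in that of the 6 polymerase III loci. The gap at day 4 thus covers the named genes of the lists only, and these 19 loci were assigned to neither kind.

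**Figure D5:**
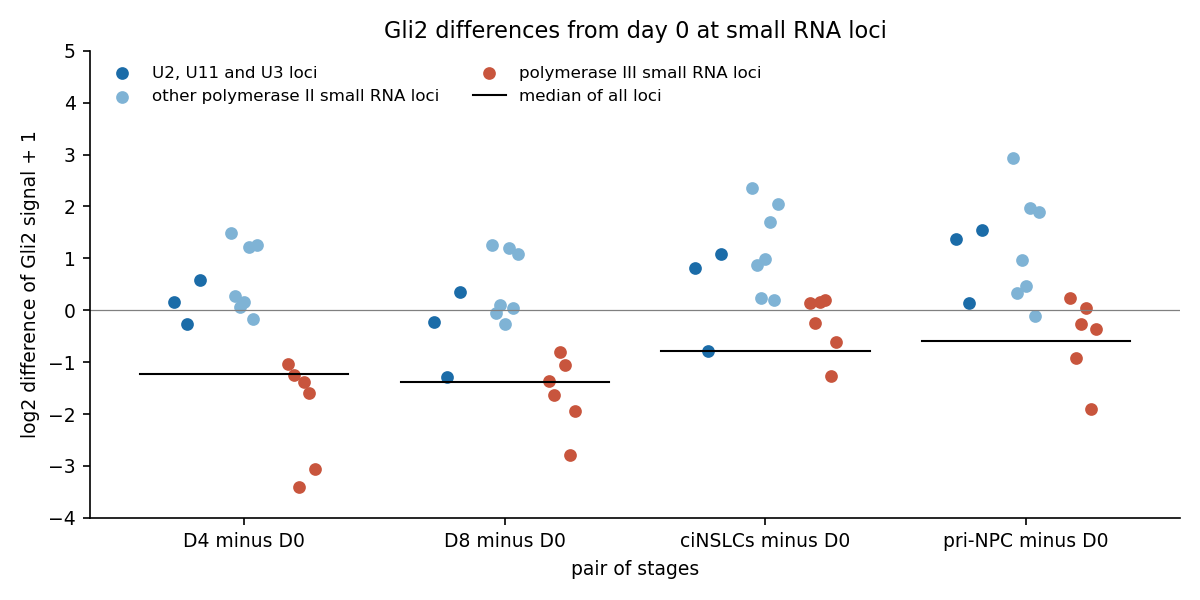
Log2 difference of Gli2 signal + 1 from day 0 at the U2, U11 and U3 loci (dark blue), at 7 other polymerase II small RNA loci (light blue) and at 6 polymerase III small RNA loci (red), 1 point per locus; black lines mark the median of all loci. At day 4 all 10 blue points lie above all red points, and 64.9% of all loci lie below the lowest blue point.

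Another pair of snRNA loci lay within 100 kb of Rnu2-10. The locus at LOC115487916, an unnamed snRNA gene of 191 bp, lay 30360 bp away and also within 1 kb of Rdm1, with Gli2 signals of 95.6 on day 0, 134.9 on day 4, 88.1 on day 8, 139.5 for ciNSLCs and 230.1 for pri-NPC. As at Rnu2-10, pri-NPC was highest, followed by ciNSLCs and day 4. Whether reads were shared between this locus and Rnu2-10 was not tested. The locus at Gm26316, likewise an unnamed snRNA gene of 191 bp, lay 53100 bp away and had 95.6, 7.1, 8.5, 29.3 and 100.4. Its day 0 level was close to that of Rnu2-10, and its days 4 and 8 were far below it. No other locus lay within 100 kb of Rnu11 or Rnu3a, the nearest being 850000 bp and 128960 bp away.

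Likeness of pattern was measured as Pearson's r of log2(signal + 1) over the 10 libraries, which share stages and antibodies, so high Gli2 beside low Elk1 enters r at every such locus. Between the 3 loci r was 0.954 for Rnu2-10 with Rnu11, 0.915 for Rnu11 with Rnu3a and 0.891 for Rnu2-10 with Rnu3a. Among other loci within 1 kb of a gene, those most like Rnu2-10 were at the leucine tRNA genes n-TLtag1 (r = 0.98) and n-TLcaa1 (r = 0.963) and at Rnu3b3 (r = 0.976). Those most like Rnu11 were at Rn7sk (r = 0.977), at the serine tRNA gene n-TSgct7 (r = 0.97) and at Arhgef1 (r = 0.967). Those most like Rnu3a were at Apex2 and Tmem29 (r = 0.97), at Rny3 (r = 0.962) and at the tRNA genes n-TPtgg6 and n-TKctt14 (r = 0.95). With Spearman's rho, 0 of the first 3 loci were the same for any of the 3, and with median scaling 1 of 3 was, so these names depend on the measure.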

How the data were processed

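Elk1 and Gli2 chromatin immunoprecipitation libraries from 5 stages were analysed, 1 per group. Tools named in the submitters' processing notes, with no role or order, were Bowtie2, SAMtools, FastQC and CASAVA 1.8.4, and the build was mm10. Of peak calling and signal scaling nothing is known (not given in the sources used here). Signal values came from the authors, who deposited them for 1577 loci in 10 columns, matched to samples by name. Whether coordinates count from 0 or 1 is not stated.

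A unit per library and a background step per stage were chosen to place most signals below 150 on a grid of whole units less whole background steps. Of signals below 60, 85.1 to 96.5% lay within 0.06 of it. This reading is an inference from the values. Signal divided by unit, rounded, gave counted units, and ratios got exact conditional binomial intervals. These treat units left after the background subtraction as counts, so they understate the error where background was subtracted. Since PCR reads without molecular identifiers are not independent, they cover counting error only. The reading of units was tested on simulated data. The ratio calls were tested only on simulated counts with no background subtracted, so the error from subtraction was not covered. Differences used log2(signal + 1), which understates those of low signals. Genes came from RefSeq GRCm38.p6 (49997 genes).

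The loci and lists were chosen with earlier results of these data known. The genes named are the 3 loci's genes, the genes with a locus in both polymerase II lists and the polymerase III list, the nearest protein-coding genes and, per locus, the 3 loci most alike; LOC115487916, Gm26316 and Rdm1 were chosen after their values were seen. The promoters searched were those within 1 kb of a locus. Alternatives were median scaling, pseudocounts of 0.1 and 5, 1.5-fold and 3-fold limits, a filter at the 25th percentile of all signals, overlap or 5 kb in place of 1 kb, the counting interval, other measures of likeness and a shorter promoter window; the background over loci listed through another library was added after seeing the data. Software was matplotlib 3.10.9, pandas 2.3.3, scipy 1.17.1 and numpy 2.4.6 under Python 3.11.15.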

Additional observations from a re-analysis of the deposited data

How the results depend on the processing

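Of 18 Gli2 differences between stages at the 3 loci, 4 were at least 2-fold higher and 1 lower. Median scaling gave 8 and 0 (Rnu2-10 and Rnu11 at each stage against day 0, with Rnu11 in ciNSLCs against day 8 lost at 0.82), a 1.5-fold limit 7 and 3, a 3-fold limit 0 and 0, and the counting interval 4 and 0. The lower one was Rnu3a at day 8 against day 0, which reversed to 0.18 under median scaling. The share of all loci called was not counted under median scaling or under the 1.5-fold and 3-fold limits. Of 18 Elk1 differences 3 were higher and 6 lower, and a pseudocount of 5 gave 0 and 3, the filter on low signals 0 higher and the counting interval 0 and 0. The 15 Gli2 over Elk1 calls held under each alternative run, with day 0 log2 differences down to 1.63 at Rnu11 and 1.86 at Rnu3a under median scaling. The 3 loci were the same with overlap or 5 kb. Over loci listed through a library outside the pair, an alternative added after seeing the data, the background of lower calls against day 0 was 30.6% for ciNSLCs and 25% for pri-NPC, and that of Gli2 over Elk1 in pri-NPC was 45.6%. The cause of these shifts was not tested. No paired analysis was possible because each group had 1 library, and no library could be left out for the same reason. The worth of a unit limits depth, since the Gli2 day 0 signals rested on 8 to 11 units.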
